A study of Mus musculus with 3 samples.

Results

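The nuclei described here are monoaminergic nuclei of the mouse brain, chosen by the measured levels of 4 genes into a noradrenergic and a serotonergic class. A nucleus was counted as noradrenergic when Dbh and Slc6a2 together reached at least 3 unique molecular identifiers (UMIs) and at least 200 CPM, the UMIs of a gene scaled to 1000000 UMIs of the nucleus or, for a class, of its summed nuclei. It was counted as serotonergic when Tph2 and Slc6a4 together met the same limits. Barcodes passed with 1000 or more genes and no more than 5% of UMIs from mitochondrial genes. Of 9027 that passed, 38 were noradrenergic and 38 were serotonergic, and the other 8951 passing nuclei form the comparison. No barcode met both rules.

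All nuclei came from uninjured C57BL/6 mice, and 1 group of animals was studied in 3 libraries, labelled as biological replicates 1, 2 and 3. Neurons had been labelled backwards from their axons in the lumbar spinal cord, dissected under fluorescence from brain slices, and sorted as nuclei before droplet sequencing (10x Genomics). How many animals made up a library, and which tracer was injected, the sources used here do not say. Whether each nucleus came from a labelled neuron was not tested.

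Noradrenaline is made from tyrosine by the enzymes Th, Ddc and Dbh in turn, and serotonin from tryptophan by Tph2 and Ddc. Both are packed into vesicles by the shared transporter Slc18a2, taken back up by Slc6a2 or Slc6a4, and broken down by the monoamine oxidases Maoa and Maob. In the brainstem, noradrenergic cells of the locus coeruleus and serotonergic cells of the raphe send axons to the spinal cord, where these transmitters act on motor, autonomic and pain circuits.

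The RefSeq sequences upstream of 3 genes of the rule, Dbh, Tph2 and Slc6a4, and of Th, which is not in the rule, are shown to place these genes, on build GRCm38.p6. Slc6a2 is not shown. Each run holds the 250 bases before the start that RefSeq gives the gene, 5′ to 3′ on the strand of the gene. Gene bounds given later are of GENCODE, and for Th and Dbh they begin upstream of the RefSeq start, so that both runs lie inside those bounds. Capitals mark matches to the 5 motifs searched on both strands. They were TGACGTCA, known as the cyclic AMP response element, AGATAA, known for zinc-finger factors such as Gata3, GGGCGG, known as the GC box, TAATTA, known for homeodomain factors, and GGAAGT, known for the ETS family. Of 32817 promoters of this length, 1.55% held TGACGTCA, 9.99% held AGATAA, 32.7% held GGGCGG, 4.85% held TAATTA and 19.7% held GGAAGT. The Th sequence (chr7:142899996-142900245, minus strand) held TGACGTCA with its first base at -45 and GGGCGG at -220, counted from the RefSeq start. The Tph2 sequence (chr10:115185023-115185272, minus strand) held AGATAA at -128. The Slc6a4 sequence (chr11:76998347-76998596, plus strand) held GGGCGG at -15 and its reverse complement at -195 and -164. The Dbh sequence (chr2:27165257-27165506, plus strand) held none of the motifs.
Th: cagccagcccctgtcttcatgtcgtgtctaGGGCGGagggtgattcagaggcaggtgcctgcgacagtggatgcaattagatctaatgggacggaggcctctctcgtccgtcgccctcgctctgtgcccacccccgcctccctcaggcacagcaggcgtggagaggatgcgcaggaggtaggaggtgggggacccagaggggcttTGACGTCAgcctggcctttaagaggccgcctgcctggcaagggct
Dbh: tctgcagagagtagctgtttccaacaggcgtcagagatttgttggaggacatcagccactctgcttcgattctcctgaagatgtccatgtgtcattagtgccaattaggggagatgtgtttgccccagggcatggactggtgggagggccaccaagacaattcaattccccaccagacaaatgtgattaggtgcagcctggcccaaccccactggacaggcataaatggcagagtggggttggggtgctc
Tph2: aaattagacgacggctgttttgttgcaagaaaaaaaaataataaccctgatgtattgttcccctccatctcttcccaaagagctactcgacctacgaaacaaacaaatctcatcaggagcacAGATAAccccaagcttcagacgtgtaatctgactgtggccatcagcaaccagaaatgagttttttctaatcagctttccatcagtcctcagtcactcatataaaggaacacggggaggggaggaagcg
Slc6a4: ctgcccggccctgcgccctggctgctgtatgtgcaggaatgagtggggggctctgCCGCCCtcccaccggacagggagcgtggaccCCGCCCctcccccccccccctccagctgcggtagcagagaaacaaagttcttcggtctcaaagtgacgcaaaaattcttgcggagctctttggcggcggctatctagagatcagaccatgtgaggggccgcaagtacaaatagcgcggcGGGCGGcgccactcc
A match is a run of letters in this window and was not tied to any measured binding.

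The classes were small in every library. Noradrenergic nuclei numbered 5, 13 and 20 in replicates 1, 2 and 3, or 0.187%, 0.469% and 0.559% of passing nuclei. Serotonergic nuclei numbered 11, 7 and 20, or 0.411%, 0.253% and 0.559%. The mean share was 0.405% ± 0.194 for noradrenergic and 0.407% ± 0.153 for serotonergic nuclei (SD, n = 3 libraries). Exact binomial 95% intervals (Clopper-Pearson) ran from 0.0606% to 0.435% for the lowest noradrenergic share and from 0.102% to 0.520% for the lowest serotonergic share, and these cover counting error only. How the dissection and the sort set these shares was not tested.

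The median depth per nucleus was 13865.5 UMIs in noradrenergic, 8765.5 in serotonergic and 13165 in other nuclei. The classes held 596940, 403881 and 155199396 UMIs in all. The smallest sum was 52349 UMIs, from the 5 noradrenergic nuclei of replicate 1. No member was called a doublet, against 126 of the other nuclei, and none of the 6 barcode sequences that occurred in more than 1 library was a member.

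The genes of the rule are given as a description only. In noradrenergic nuclei, Dbh (chromosome 2, 27165233 to 27183200), which turns dopamine into noradrenaline, stood at 241 CPM and was seen in 36 of 38 nuclei. Slc6a2 (chromosome 8, 92960079 to 93001667), the noradrenaline transporter, stood at 420.5 CPM and was seen in 37. In serotonergic nuclei, Tph2 (chromosome 10, 115078641 to 115185022), the brain tryptophan hydroxylase, stood at 1263 CPM and was seen in 36 of 38 nuclei. Slc6a4 (chromosome 11, 76998603 to 77032340), the serotonin transporter, stood at 361.5 CPM and was seen in 26. Other nuclei held between 0.464 and 0.844 CPM of each of these genes. The noradrenergic nuclei just inside the rule had 266.6 and 266.9 CPM for the pair, and those just outside had 189.9 and 104 CPM. The serotonergic nuclei just inside had 246.4 and 268 CPM, and the nucleus just outside had 163.5 CPM.

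No noradrenergic nucleus held a UMI of Tph2 or Slc6a4, and 1 serotonergic nucleus held UMIs of Dbh or Slc6a2. The adrenaline enzyme Pnmt and the dopamine transporter Slc6a3 were at 0 UMIs in both classes, where the exact Poisson 95% limit was 6.18 CPM in noradrenergic and 9.13 CPM in serotonergic nuclei. The dopaminergic list of 3 genes, with Slc6a3 among them, summed to 11.7, 4.95 and 8.74 CPM in noradrenergic, serotonergic and other nuclei. These sums came from 7 noradrenergic and 2 serotonergic UMIs, and the noradrenergic sum ranged from 7.1 to 38.2 CPM over libraries. The cholinergic marker list of 3 genes summed to 1.68 CPM in noradrenergic, 2.48 CPM in serotonergic and 0.490 CPM in other nuclei. The astrocyte list of 4 genes summed to 0 CPM, with all 4 genes at 0, in noradrenergic nuclei, to 4.95 CPM, with 3 at 0, in serotonergic nuclei, and to 2.11 CPM in other nuclei. The microglial list of 4 genes summed to 58.6, 99 and 45.9 CPM and the endothelial list of 3 genes to 1.68, 22.3 and 8.07 CPM in noradrenergic, serotonergic and other nuclei, and their part in the results was not tested. Of the microglial UMIs, P2ry12 held 26 of 35, 30 of 40 and 5117 of 7126 in the same order. P2ry12 overlaps Med12l on the opposite strand, and the sources used here do not say whether counting used strand. The corticospinal list of 7 genes summed to 420.5, 510.1 and 1472 CPM in noradrenergic, serotonergic and other nuclei. The range over libraries was 344 to 476 CPM, 244 to 1048 CPM and 1212 to 1531 CPM. Its 7 genes include Tox, a transcription regulator of many neurons, at 337, 233 and 512 CPM.

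UMIs were summed per library and class and tested over 5432 genes that passed a filter on low counts, the genes of the rule left out. A gene was called when the adjusted p was under 0.05 in the quasi-likelihood test of edgeR (Benjamini-Hochberg over all tested genes) and the log2 fold change was at least 1 in size. The p-values measure the spread of 3 libraries, which may be in part technical. Against other nuclei, 522 genes (9.61%) were called higher and 647 (11.9%) lower in noradrenergic nuclei, and 336 (6.19%) were called higher and 506 (9.32%) lower in serotonergic nuclei. Between the classes, 202 genes (3.72%) were called higher and 192 (3.53%) lower in noradrenergic than in serotonergic nuclei, or 7.25% in either direction. The shares in either direction against other nuclei were 21.5% in noradrenergic and 15.5% in serotonergic nuclei. The comparisons with other nuclei share those nuclei, and 193 genes were called higher and 340 lower in both.

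Genes of transmitter synthesis, storage and breakdown differed between the classes and from other nuclei. Of 21 genes in the list, 7 passed the filter. In noradrenergic nuclei 5 were called higher than in other nuclei and 0 lower, beside 9.61% and 11.9% of all tested genes. In serotonergic nuclei 5 were called higher and 0 lower, beside 6.19% and 9.32%. The median log2 fold changes were 5.18 and 4.74, beside -0.01 and -0.01 over all tested genes. The genes that passed include ones that did so through these classes, so the counts describe the list and no more.

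Th (chromosome 7, 142892752 to 142931128), the first enzyme of catecholamine synthesis, stood at 57.3, 221 and 281 CPM in noradrenergic nuclei of replicates 1, 2 and 3, at 0 CPM in serotonergic nuclei of all 3 libraries, and at 0.697, 1.29 and 1.32 CPM in other nuclei. The classes did not overlap, and the 5 nuclei of replicate 1 gave the lowest noradrenergic level, from 3 UMIs. Th was higher in noradrenergic than in other nuclei by 7.24 on the log2 scale (SE 0.32, adjusted p = 4.6e-10), and at least 31.6-fold higher than in serotonergic nuclei, set against 3 counts over that class (adjusted p = 1.6e-05). It was seen in 32 of 38 noradrenergic nuclei and in 139 of 8951 other nuclei, or 84.2% and 1.55%. With nuclei thinned to 3000 UMIs these shares were 63.2% of 38 and 0.504% of 8535. Thinning left out the shallower nuclei, 0 noradrenergic, 1 serotonergic and 416 other.

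Ddc (chromosome 11, 11814101 to 11898144), the decarboxylase shared by both pathways, was lower in noradrenergic than in serotonergic nuclei. Its level was 229, 141 and 146 CPM in noradrenergic nuclei, 774, 327 and 498 CPM in serotonergic nuclei, and 1.69, 2.23 and 2.22 CPM in other nuclei. The ranges of the classes did not overlap. The difference between the classes was -1.70 on the log2 scale (SE 0.28, adjusted p = 0.00057), and -1.59 (adjusted p = 0.065) without replicate 3. Ddc overlaps an opposite-strand transcript, and the sources used here do not say whether counting used strand.

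The vesicular transporter Slc18a2 (chromosome 19, 59260896 to 59296012) was higher in noradrenergic nuclei than in serotonergic nuclei. It stood at 879, 616 and 824 CPM in noradrenergic nuclei, at 298, 122 and 437 CPM in serotonergic nuclei, and at 7.74, 9.47 and 10.7 CPM in other nuclei. It was called higher than in other nuclei in both classes (adjusted p = 2.4e-11 and 1.3e-08). The difference between the classes was 1.37 (SE 0.27, adjusted p = 0.0029). Gch1, which starts the synthesis of the cofactor that Th and Tph2 need, averaged 48.2 ± 15.4 CPM in noradrenergic, 76.4 ± 35.6 CPM in serotonergic and 1.26 ± 0.605 CPM in other nuclei (SD, n = 3 libraries). It was called higher than in other nuclei in both classes, and did not pass the test between them (log2 fold change -0.56, adjusted p = 0.59).

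The monoamine oxidases differed between the classes in opposite directions. Against other nuclei, Maoa was called higher in both classes and Maob in serotonergic nuclei only. Maoa (chromosome X, 16619698 to 16687818) stood at 420, 471 and 721 CPM in noradrenergic nuclei, at 59.6, 84.2 and 70.4 CPM in serotonergic nuclei, and at 12.2, 12.4 and 14.4 CPM in other nuclei. It was seen in 38 of 38 noradrenergic and 21 of 38 serotonergic nuclei, and was higher in noradrenergic than in serotonergic nuclei by 2.98 on the log2 scale (SE 0.26, adjusted p = 9.4e-07). Its neighbour Maob (chromosome X, 16709282 to 16817366) ran the other way, at 0, 7.6 and 10.7 CPM in noradrenergic nuclei, 71.5, 84.2 and 169 CPM in serotonergic nuclei, and 1.25, 1.1 and 1.45 CPM in other nuclei. Maob was lower in noradrenergic than in serotonergic nuclei by -3.84 on the log2 scale (SE 0.62, adjusted p = 0.00041), and by -3.63 (adjusted p = 0.094) without replicate 3.

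Genes under the filter are given by their pooled level and by the fit without a filter. In that fit 2.16% of 28923 genes were called higher and 4.19% lower in noradrenergic than in other nuclei, 1.08% higher and 3.1% lower in serotonergic than in other nuclei, and 0.861% higher and 0.902% lower in noradrenergic than in serotonergic nuclei. Slc22a3, a low-affinity monoamine transporter, was at 0 UMIs in noradrenergic nuclei, at 71.8 CPM (exact Poisson 95% interval 48.1 to 103) in serotonergic nuclei, and at 0.490 CPM in other nuclei. It was called higher in serotonergic than in other nuclei (adjusted p = 5.9e-17 in edgeR without a filter) and at least 14.3-fold lower in noradrenergic than in serotonergic nuclei. Cyb561, which carries electrons into secretory vesicles for Dbh, stood at 53.6, 9.9 and 8.81 CPM in noradrenergic, serotonergic and other nuclei, and was called higher in noradrenergic than in other nuclei (log2 fold change 2.14, adjusted p = 6.1e-05).

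**Figure D1:**
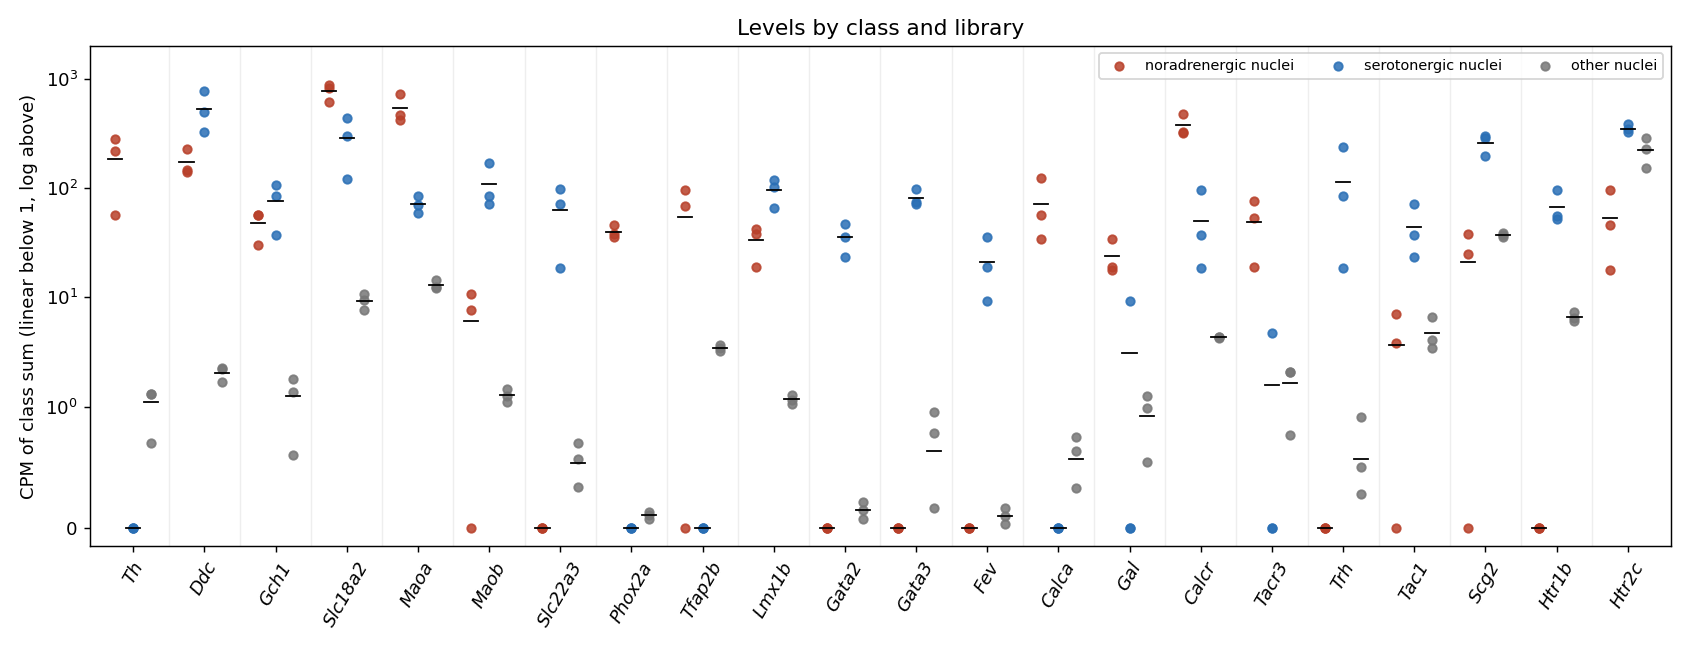
Points give the level of each gene in CPM (linear below 1, log above) in the summed noradrenergic, serotonergic and other nuclei of each of 3 libraries, and bars give the mean. Th, Phox2a and Calca lie at 0 in every serotonergic sum, and Gata3, Slc22a3, Trh and Htr1b lie at 0 in every noradrenergic sum.

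Transcription factors of noradrenergic neurons were seen in the noradrenergic class. None of the 10 noradrenergic identity factors passed the filter, and Phox2a and Tfap2b were called higher in noradrenergic than in other nuclei without it. Phox2a, a homeodomain factor required for noradrenergic neurons, stood at 40.2 CPM in noradrenergic nuclei and was seen in 17 of 38. It was at 0 UMIs in serotonergic nuclei and at 0.103 CPM in other nuclei. Tfap2b stood at 0, 68.4 and 95.9 CPM in the noradrenergic nuclei of replicates 1, 2 and 3, at 0 UMIs in serotonergic nuclei and at 3.41 CPM in other nuclei. Of the 10 factors, 7 were at 0 UMIs in noradrenergic nuclei.

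Gata3, which works in the serotonergic lineage, was at 0 CPM in noradrenergic nuclei of all 3 libraries, at 71.5, 74.8 and 98.6 CPM in serotonergic nuclei, and at 0.954, 0.162 and 0.785 CPM in other nuclei. It was higher in serotonergic than in other nuclei by 6.96 on the log2 scale (SE 0.62, adjusted p = 1.5e-06). It was at least 17.2-fold lower in noradrenergic than in serotonergic nuclei (adjusted p = 0.0026, and 0.12 without replicate 3). Gata3 overlaps antisense transcripts. Gata2 and Fev (also called Pet1), both factors of serotonin neurons, stood at 32.2 and 19.8 CPM in serotonergic nuclei, at 0 UMIs in noradrenergic nuclei, and at 0.142 and 0.116 CPM in other nuclei. Both were called higher in serotonergic than in other nuclei without the filter.

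Lmx1b, a factor needed for serotonergic neurons, was not limited to them. It stood at 19.1, 38 and 42.6 CPM in noradrenergic nuclei, 119, 103 and 65.7 CPM in serotonergic nuclei, and 1.28, 1.15 and 1.07 CPM in other nuclei. It was higher than in other nuclei by 4.87 in noradrenergic nuclei (SE 0.53, adjusted p = 1.8e-06) and by 6.08 in serotonergic nuclei (SE 0.47, adjusted p = 1.7e-07). The classes did not overlap, but the difference of -1.21 on the log2 scale did not pass the test (SE 0.48, adjusted p = 0.16). It was seen in 18 of 38 noradrenergic and 17 of 38 serotonergic nuclei.

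Hox genes, which mark position along the hindbrain and cord, were found in serotonergic but in no noradrenergic nucleus. The 16 Hox genes of the list summed to 0 UMIs in noradrenergic nuclei, with an exact Poisson 95% limit of 6.18 CPM. They summed to 24 UMIs, or 59.4 CPM (38.1 to 88.4), in 14 of 38 serotonergic nuclei, and to 19.1 CPM (18.4 to 19.8) in other nuclei. The serotonergic sums were 83.4, 93.5 and 32.9 CPM in replicates 1, 2 and 3. The midbrain and anterior hindbrain factor En1 was at 0 UMIs in both classes and at 0.457 CPM in other nuclei. Of these genes Hoxd3 was called lower in noradrenergic than in serotonergic nuclei, from 0 and 10 UMIs (adjusted p = 0.024 without the filter).

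**Figure D2:**
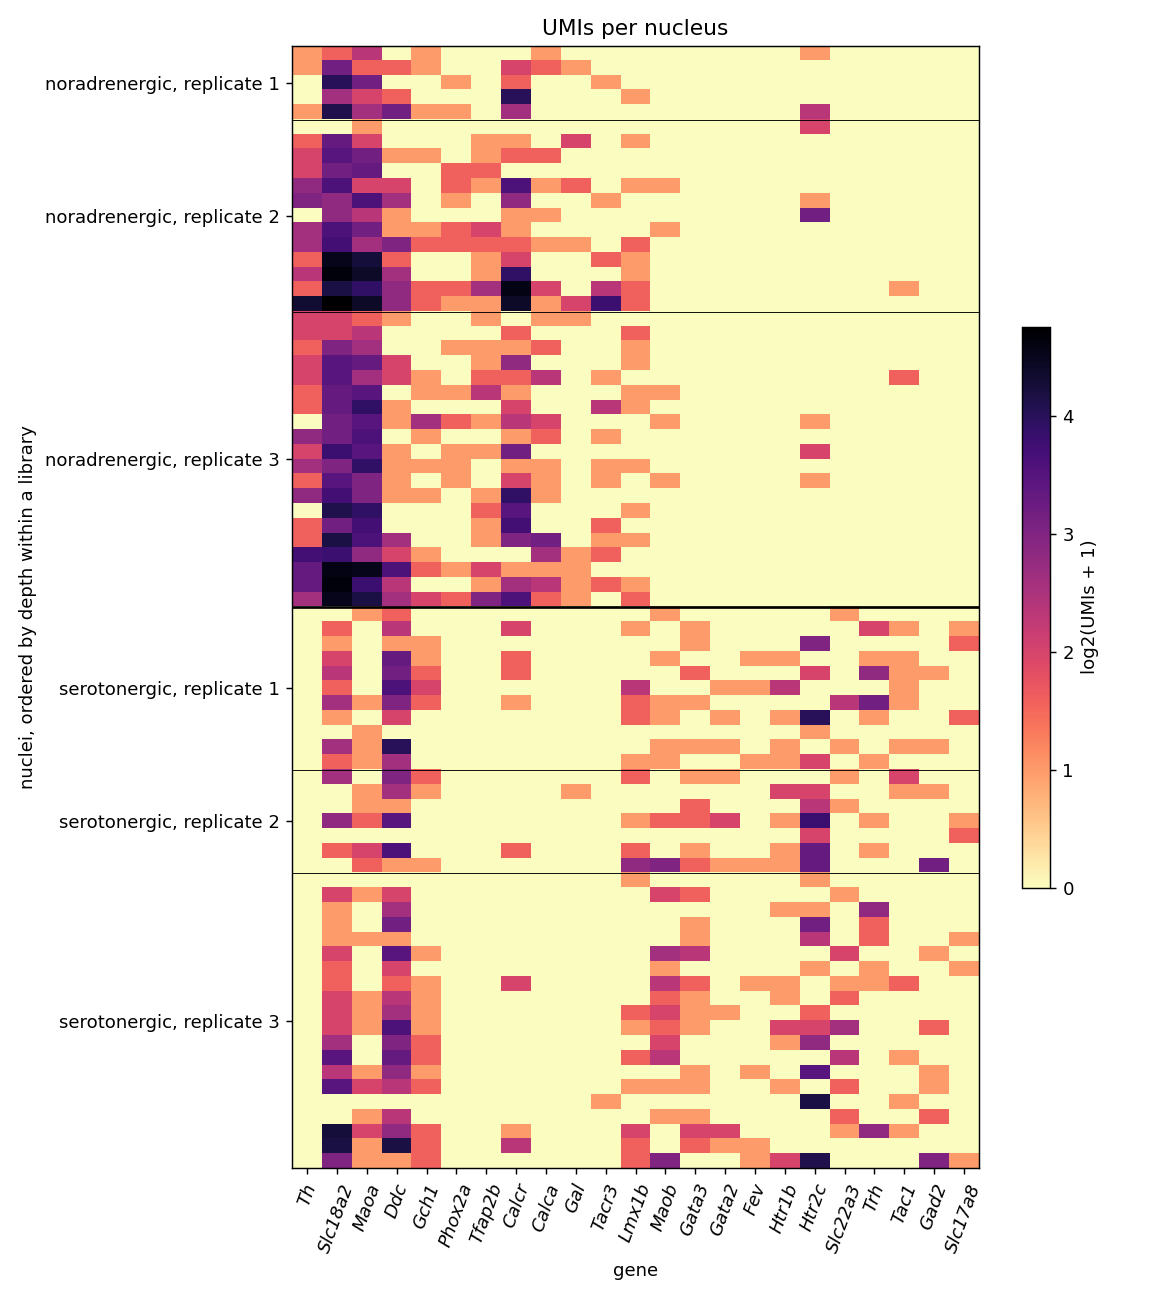
Each row is 1 of 76 nuclei, with noradrenergic nuclei above serotonergic ones and libraries in order, and each column a gene, and the colour gives log2(UMIs + 1). Th, Slc18a2, Maoa and Calcr fill the noradrenergic rows, while Htr2c and Slc22a3 fall mostly in different serotonergic rows, with both seen in 2 nuclei.

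Each class had different peptide genes below the filter called higher than in other nuclei. Of these, Calca and Trh also passed the test between the classes. In noradrenergic nuclei Calca (chromosome 7, 114631478 to 114636357), which encodes calcitonin gene-related peptide, stood at 57.3, 34.2 and 124 CPM, at 0 UMIs in serotonergic nuclei and at 0.625 CPM in other nuclei. It was seen in 21 of 38 noradrenergic nuclei and 89 of 8951 other nuclei. Gal, which encodes galanin, was at 25.1, 2.48 and 0.838 CPM in noradrenergic, serotonergic and other nuclei. Of the 10 noradrenergic nuclei with a Gal UMI, 9 also had a Calca UMI. Npy, another peptide gene of the list, was at 0 UMIs in both classes.

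In serotonergic nuclei Trh (chromosome 6, 92242061 to 92244650), which encodes thyrotropin-releasing hormone, stood at 238, 18.7 and 84.5 CPM, at 0 UMIs in noradrenergic nuclei and at 0.477 CPM in other nuclei. Tac1, which encodes substance P, was at 5.03 CPM in noradrenergic, 37.1 CPM in serotonergic and 4.76 CPM in other nuclei. Penk, which encodes enkephalins, was at 1.68, 27.2 and 2.35 CPM in the same order. Trh was seen in 14 serotonergic nuclei, Tac1 in 12 and Penk in 5, and 6 nuclei had both Trh and Tac1. Without the filter, Calca and Gal were called higher in noradrenergic than in other nuclei (adjusted p = 2.5e-18 and 4.1e-07 in edgeR), and Trh, Tac1 and Penk in serotonergic than in other nuclei (adjusted p = 1.2e-21, 0.0020 and 0.0024). Between the classes, Calca was called higher and Trh lower in noradrenergic than in serotonergic nuclei (adjusted p = 0.00029 and 2e-05), while Gal (0.41), Tac1 (0.14) and Penk (0.14) did not pass.

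Of the 29 genes for peptides and their secretory partners, 9 passed the filter. The granin Scg2 was at 0, 38 and 24.9 CPM in noradrenergic nuclei, 286, 196 and 300 CPM in serotonergic nuclei, and 35.9, 37.3 and 39.2 CPM in other nuclei. It was higher in serotonergic than in other nuclei by 2.60 on the log2 scale (SE 0.25, adjusted p = 1.3e-06), and lower in noradrenergic than in serotonergic nuclei by -3.24 (SE 0.38, adjusted p = 2.2e-05). The granin Chgb was called higher than in other nuclei in both classes, at 85.4, 86.7 and 31 CPM in noradrenergic, serotonergic and other nuclei. Its log2 fold change was 1.24 in noradrenergic nuclei (0.81, adjusted p = 0.34, without replicate 3) and 1.26 in serotonergic nuclei (1.06, adjusted p = 0.10, without replicate 1, and 1.10, adjusted p = 0.26, without replicate 3). The processing enzymes Pcsk2 and Cpe were called lower in noradrenergic than in other nuclei, at -1.03 and -1.48 on the log2 scale. Neither call held against other nuclei with low corticospinal markers. There Pcsk2 stood at -0.51 (adjusted p = 0.085 in edgeR). Cpe stood at -0.91 (adjusted p = 0.0070) and missed only the limit on fold change.

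Of 12 genes for fast transmitters, 2 passed the filter. Slc17a7, the vesicular glutamate transporter of the cortex, was at 18.4, 32.2 and 86.1 CPM in noradrenergic, serotonergic and other nuclei and was called lower in both classes. Its log2 fold change in serotonergic nuclei was -1.55 (adjusted p = 0.018), and -1.27 (adjusted p = 0.23) without replicate 3. Below the filter, Slc17a6, the transporter of brainstem glutamate neurons, was at 10.1, 24.8 and 38.6 CPM and was called lower in noradrenergic than in other nuclei. Gad2, which makes GABA, was at 0 UMIs in noradrenergic nuclei, 61.9 CPM in serotonergic nuclei and 3.54 CPM in other nuclei, and was seen in 10 serotonergic nuclei. Slc17a8, a vesicular glutamate transporter of serotonin neurons, was at 0 UMIs in noradrenergic nuclei, 27.2 CPM in serotonergic nuclei and 1.37 CPM in other nuclei, and was seen in 8 serotonergic nuclei. Both were called higher in serotonergic than in other nuclei without the filter (adjusted p = 3.2e-08 and 0.00027 in edgeR), and 1 nucleus had UMIs of both. The vesicular GABA transporter Slc32a1 was called higher there too (adjusted p = 0.046), from 5 UMIs.

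Of 26 receptors for the monoamines themselves, 5 passed the filter, and in noradrenergic nuclei 0 were called higher and 5 lower than in other nuclei, beside 9.61% and 11.9% of all tested genes. In serotonergic nuclei 1 was called higher and 2 lower, beside 6.19% and 9.32%. In noradrenergic nuclei the call of Adra1a over other nuclei (-2.43) did not hold against those with low corticospinal markers (-1.44, adjusted p = 0.083). Between the classes, 4 were called lower in noradrenergic than in serotonergic nuclei, beside 3.53% of all tested genes. Among these, the adrenergic receptor Adra1a lost its call without replicate 2 (log2 fold change -1.41, adjusted p = 0.26) or the 2 deepest serotonergic nuclei (-1.76, adjusted p = 0.17), and Htr4 without replicate 1, 2 or 3 (adjusted p = 0.054, 0.13 and 0.39).

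The serotonin receptor Htr1b (chromosome 9, 81628291 to 81633828), an inhibitory autoreceptor on serotonin terminals, was at 0 CPM in noradrenergic nuclei of all 3 libraries, at 95.3, 56.1 and 51.6 CPM in serotonergic nuclei, and at 7.34, 6.53 and 6.08 CPM in other nuclei. It was higher in serotonergic than in other nuclei by 3.08 on the log2 scale (SE 0.44, adjusted p = 0.00013), and at least 12.3-fold lower in noradrenergic than in serotonergic nuclei (adjusted p = 0.00078). Its call as lower in noradrenergic than in other nuclei (adjusted p = 0.049) was lost in 7 of 10 alternatives. These include the fits without replicate 1, 2 or 3 (adjusted p = 0.061, 0.22 and 0.24). Htr1b overlaps an opposite-strand transcript. The receptor Htr4, which raises cyclic AMP, was at 0 UMIs in noradrenergic nuclei, at 17.3 CPM in serotonergic nuclei and at 62 CPM in other nuclei, at least 12.3-fold lower in noradrenergic than in other nuclei (adjusted p = 1e-05).

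Htr2c (chromosome X, 146962513 to 147197277), a receptor that acts through Gq, was at 95.5, 45.6 and 17.8 CPM in noradrenergic nuclei, 345, 384 and 324 CPM in serotonergic nuclei, and 285, 154 and 228 CPM in other nuclei. The noradrenergic levels lay below both others in each library. Htr2c was lower in noradrenergic than in serotonergic nuclei by -3.13 on the log2 scale (SE 0.37, adjusted p = 2.3e-05), while serotonergic and other nuclei did not pass the test (0.50, SE 0.23, adjusted p = 0.14). Htr1f was called lower than in other nuclei in both classes, at 62, 101.5 and 541 CPM in noradrenergic, serotonergic and other nuclei. In serotonergic nuclei its call (-2.54) did not hold against other nuclei with low corticospinal markers (-0.71, adjusted p = 0.090). The adrenergic receptor Adra1b, below the filter, was at 3.35, 69.3 and 16 CPM and was called higher in serotonergic than in other nuclei without the filter (adjusted p = 0.016), and lower in noradrenergic than in other nuclei (adjusted p = 0.022). Adrb1 and Htr7, also below the filter, were called lower than in other nuclei in both classes. The autoreceptor genes Adra2a and Htr1a were sparse, with 3 UMIs of Adra2a in noradrenergic and 2 UMIs of Htr1a in serotonergic nuclei.

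Among receptors for peptides and hormones, Calcr was called higher in both classes and higher in noradrenergic than in serotonergic nuclei. Calcr (chromosome 6, 3685680 to 3764714), the calcitonin receptor, was at 478, 319 and 327 CPM in noradrenergic nuclei, 95.3, 18.7 and 37.6 CPM in serotonergic nuclei, and 4.33, 4.25 and 4.32 CPM in other nuclei. The classes did not overlap. It was seen in 33 of 38 noradrenergic nuclei, 8 of 38 serotonergic nuclei and 274 of 8951 other nuclei, and after thinning in 47.4%, 8.11% and 1.37%. Calcr was higher than in other nuclei by 6.16 in noradrenergic nuclei (SE 0.25, adjusted p = 1.8e-11) and by 3.19 in serotonergic nuclei (SE 0.51, adjusted p = 0.00021), and higher in noradrenergic than in serotonergic nuclei by 2.97 (SE 0.36, adjusted p = 2.6e-05).

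Of the 31 receptors in that list 9 passed the filter, and 3 were called higher and 2 lower in noradrenergic than in other nuclei, and 2 higher and 1 lower in serotonergic than in other nuclei. The shares of all tested genes were 9.61% and 11.9%, and 6.19% and 9.32%. The histamine receptor Hrh1 was called higher in both, at 28.5, 27.2 and 2.14 CPM in noradrenergic, serotonergic and other nuclei. The estrogen receptor Esr1 was at 48.6, 17.3 and 15.5 CPM and was called higher in noradrenergic than in other nuclei (log2 fold change 1.44, adjusted p = 0.0076), but not against other nuclei with low corticospinal markers (0.89, adjusted p = 0.14). The mineralocorticoid receptor Nr3c2 was called lower in noradrenergic than in other nuclei, at 106, 359 and 366 CPM, and the cannabinoid receptor Cnr1 lower in both classes, at 6.7, 19.8 and 51.5 CPM. Cnr1 in serotonergic nuclei had a log2 fold change of -1.53 (adjusted p = 0.017), and -1.69 (adjusted p = 0.081) without replicate 2. Below the filter, the tachykinin receptors Tacr3 and Tacr1 were at 60.3 and 30.2 CPM in noradrenergic nuclei, 2.48 and 0 CPM in serotonergic nuclei, and 1.5 and 3.77 CPM in other nuclei. The orexin receptor Hcrtr1 was at 30.2, 12.4 and 2.22 CPM in noradrenergic, serotonergic and other nuclei, and these 3 genes were called higher in noradrenergic than in other nuclei without the filter. The other orexin receptor, Hcrtr2, was at 5.03, 17.3 and 27.1 CPM and was called lower in noradrenergic than in other nuclei (adjusted p = 0.00081), as was the stress hormone receptor Crhr1, at 0, 9.9 and 11.5 CPM (adjusted p = 0.0063). The galanin receptor Galr1 was called higher in serotonergic than in other nuclei (adjusted p = 7e-05), from 8 UMIs. The orexin gene itself, Hcrt, was at 60.3, 71.8 and 79.5 CPM and was called in no comparison.

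Ion channels that set firing rate changed in both directions. Of 27 in the list 19 passed the filter, with 4 called higher and 6 lower in noradrenergic than in other nuclei, and 2 higher and 7 lower in serotonergic than in other nuclei. The shares of all tested genes were 9.61% and 11.9%, and 6.19% and 9.32%. Kcnn3, a calcium-activated potassium channel of the afterhyperpolarisation, was at 136, 104 and 14.2 CPM in noradrenergic, serotonergic and other nuclei. It was called higher in both classes, by 3.05 (SE 0.28, adjusted p = 2.3e-07) and 2.64 (SE 0.34, adjusted p = 2.6e-05) on the log2 scale.

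Kcnd2, an A-type potassium channel, was at 126, 636 and 1314 CPM in noradrenergic, serotonergic and other nuclei, was called lower in both classes than in other nuclei, and was lower in noradrenergic than in serotonergic nuclei by -2.34 on the log2 scale (SE 0.32, adjusted p = 0.0001). Kcnc2, a fast potassium channel, was at 901, 292 and 188 CPM and was higher in noradrenergic than in serotonergic nuclei by 1.74 (SE 0.29, adjusted p = 0.00051). Its call over other nuclei (1.89) did not hold against those with low corticospinal markers (0.48, adjusted p = 0.18). Neither did that of the sodium leak channel Nalcn (1.65, against 0.78 with adjusted p = 0.0057 in edgeR), which missed only the limit on fold change.

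Several of the lower calls also depended on which other nuclei were used. Against those with low corticospinal markers, the lower calls in serotonergic nuclei were lost for Kcnd3 (log2 fold change -1.04, adjusted p = 0.11), Kcnj3 (-0.39, adjusted p = 0.40), Kcnn2 (-0.05, adjusted p = 0.95), Trpc4 (-0.26, adjusted p = 0.87) and Trpc5 (-1.57, adjusted p = 0.064). The higher call of Hcn3 in serotonergic nuclei was lost as well (1.11, adjusted p = 0.12). In noradrenergic nuclei the lower call of Kcnj3 was lost (-0.40, adjusted p = 0.27) and Trpc4 turned in direction without a call (0.62, adjusted p = 0.35). Leaving out 1 library also ended serotonergic calls, those of Kcnj3 and Hcn3 without replicate 2 (adjusted p = 0.068 and 0.066), of Kcnd3 and Trpc4 without replicate 3 (adjusted p = 0.19 and 0.058), and of Trpc5 without replicate 1, 2 or 3 (adjusted p = 0.060, 0.052 and 0.088). In noradrenergic nuclei it ended those of Kcnc1 without replicate 1 (adjusted p = 0.062) and of Kcnj3 without replicate 2 (-0.99, adjusted p = 0.015) or 3 (-0.89, adjusted p = 0.063). Below the filter, the calcium channel Cacna1h was called lower in noradrenergic and Cacna1i lower in serotonergic than in other nuclei.

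Of 19 trophic factor receptors 7 passed the filter. Fgfr1, a fibroblast growth factor receptor, was at 137, 29.7 and 19.2 CPM in noradrenergic, serotonergic and other nuclei and was higher in noradrenergic than in other nuclei by 2.64 (SE 0.27, adjusted p = 7.8e-07). Egfr, the receptor for epidermal growth factor, was at 60.3, 2.48 and 10.2 CPM and was higher in noradrenergic than in other nuclei by 2.46 (SE 0.37, adjusted p = 5.3e-05). Erbb4, a neuregulin receptor, was at 3.35, 74.3 and 137 CPM and was called lower in both classes than in other nuclei, though in serotonergic nuclei (log2 fold change -1.13) the call was lost without replicate 2 (-0.87, adjusted p = 0.078) or replicate 3 (-1.41, adjusted p = 0.067). Below the filter, among the GDNF family receptor genes, Ret was at 45.2, 7.43 and 8.78 CPM and Gfra1 at 1.68, 52 and 11.2 CPM in noradrenergic, serotonergic and other nuclei. Ret was called higher in noradrenergic and Gfra1 in serotonergic than in other nuclei without the filter (adjusted p = 0.00068 and 0.016). Between the classes, Gfra1 was called lower in noradrenergic than in serotonergic nuclei (adjusted p = 0.0006), and Ret did not pass (adjusted p = 0.064). Gfra2 was called lower than in other nuclei in both classes, at 3.35, 4.95 and 25.8 CPM, and Met, the receptor for hepatocyte growth factor, lower in noradrenergic than in other nuclei, at 0, 4.95 and 11.2 CPM.

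Outside the lists, the genes named by the size of their change are described next. The adhesion gene Igsf5 (chromosome 16, 96361668 to 96422121) was at 153, 137 and 146 CPM in noradrenergic nuclei, at 0 CPM in serotonergic nuclei of all 3 libraries, and at 1.72, 0.5 and 0.601 CPM in other nuclei. It was higher in noradrenergic than in other nuclei by 7.41 on the log2 scale (SE 0.42, adjusted p = 7.6e-09), and at least 19.2-fold higher than in serotonergic nuclei. The transcription cofactors Eya1 and Eya2 were higher than in other nuclei by 5.42 and 4.87 on the log2 scale. Eya2 averaged 295 ± 37.8 CPM in noradrenergic, 4.68 ± 4.68 CPM in serotonergic and 9.35 ± 2.11 CPM in other nuclei (SD, n = 3 libraries). The adhesion molecule Sdk1 (chromosome 5, 141241490 to 142215586) averaged 2475 ± 433 CPM in noradrenergic, 61.8 ± 72.9 CPM in serotonergic and 127 ± 29.9 CPM in other nuclei, and was higher in noradrenergic than in serotonergic nuclei by 4.97 (SE 0.39, adjusted p = 4.3e-07). Chodl and Pdgfd were also among the 10 largest increases over other nuclei (6.94 and 5.32), and Nr4a3 was at least 9.7-fold higher in noradrenergic than in serotonergic nuclei (Nr4a3 lost its call without replicate 3, adjusted p = 0.063).

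In serotonergic nuclei the largest increases over other nuclei outside the lists were Plch1, a phospholipase C, Pappa2, a protease of growth factor binding proteins, Cpne7 and Stard13. Their log2 fold changes were 4.60, 4.43, 4.19 and 4.17. Plch1 averaged 8.9 ± 9.62 CPM in noradrenergic, 222 ± 169 CPM in serotonergic and 7.12 ± 2.56 CPM in other nuclei (SD, n = 3 libraries), and was lower in noradrenergic than in serotonergic nuclei by -5.03 (SE 0.64, adjusted p = 4.7e-05). The choline transporter-like gene Slc44a5 was at 0 CPM in noradrenergic nuclei of all 3 libraries and at 119, 46.8 and 103 CPM in serotonergic nuclei, at least 18.2-fold lower in noradrenergic nuclei. The prolactin receptor Prlr was at 1.68 CPM in noradrenergic and 109 CPM in serotonergic nuclei, a ratio of 0.0154 (counting interval 0.000381 to 0.0903). Smad3, which carries TGF-beta signals, was at least 10.8-fold lower in noradrenergic than in serotonergic nuclei.

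Several of the largest decreases were shared by both classes. Bcl11a was at 5.03 CPM in noradrenergic, 12.4 CPM in serotonergic and 195 CPM in other nuclei, and Necab1 at 1.68, 4.95 and 73.3 CPM. In noradrenergic nuclei Zeb2, Foxp2, Sema3e, Car10, Fam20a and Itgav were also among the 10 largest decreases, and in serotonergic nuclei Sphkap, Galnt14, Etv1, Pdzd2, L3mbtl4, Dleu2, Dpy19l1 and Lrtm1, which overlaps Cacna2d3. Of the other nuclei, 4818 of 8951 held at least 500 CPM of Tox, Nfib and Bcl11b, against 14 of 38 noradrenergic and 11 of 38 serotonergic nuclei.

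**Figure D3:**
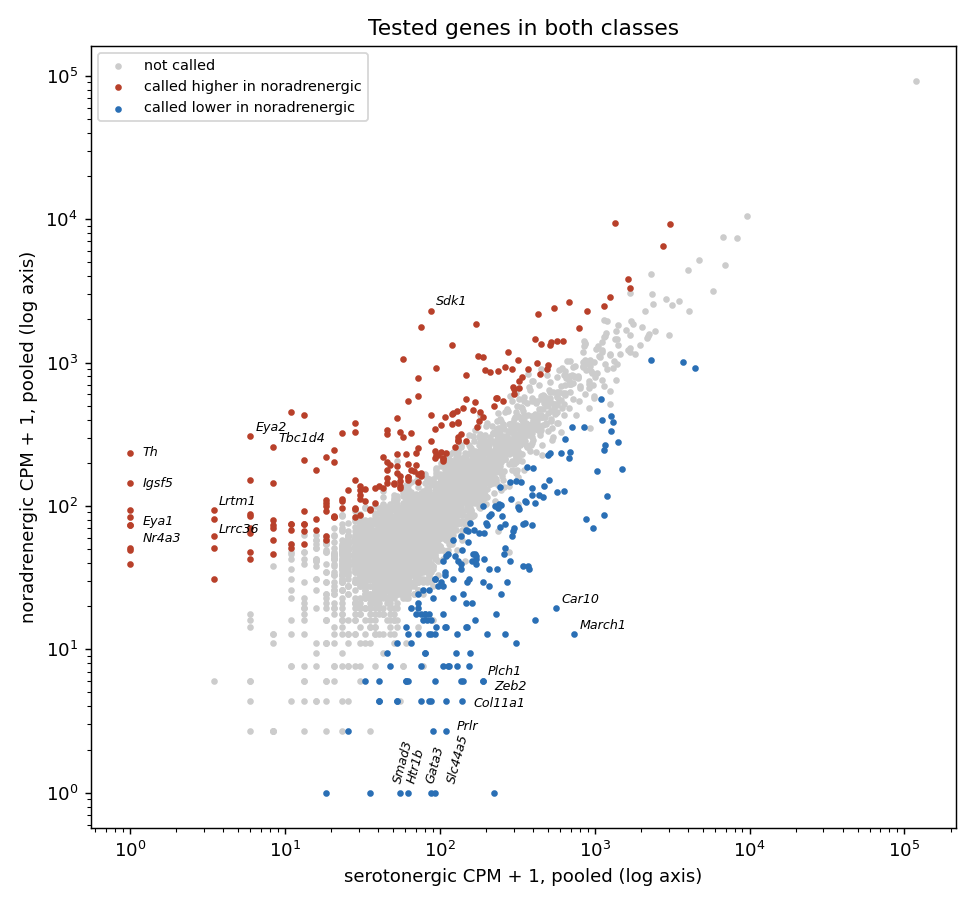
Each point is a tested gene, with its pooled level plus 1 CPM in serotonergic nuclei on the horizontal and in noradrenergic nuclei on the vertical log axis. The 202 genes called higher and the 192 called lower in noradrenergic nuclei are coloured, and genes named by the naming rule are labelled.

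Some serotonergic sums rest on few nuclei. The 2 deepest serotonergic nuclei, with 35422 and 36921 UMIs, held 62 of the 77 Zeb2 UMIs, 168 of the 298 March1 UMIs, 31 of the 56 Col11a1 UMIs and 45 of the 228 Car10 UMIs of the class. Without them the log2 fold change between noradrenergic and serotonergic nuclei was -3.18 for Zeb2, -4.75 for March1 and -4.73 for Car10 (-5.25, -5.82 and -4.84 with them), each still called, and Col11a1 did not pass the filter. The call of Nfib (-2.72) was lost without them (-0.94, adjusted p = 0.44), without replicate 1 (-2.72, adjusted p = 0.056) and without replicate 2 (-1.34, adjusted p = 0.40). In 4 of 38 serotonergic nuclei no Ddc UMI was seen.

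Serotonergic nuclei are described here by whether a Slc6a4 UMI was seen. One was seen in 26 nuclei and in the other 12 none was, at a median depth of 8765.5 and 8683.5 UMIs, and both kinds occurred in every library. Because Slc6a4 belongs to the rule and this split was chosen after its values were seen, the following levels are a description with no test, and the intervals cover counting error within these nuclei only. Slc22a3 was at 117 CPM (exact Poisson 95% interval 78.1 to 168) in nuclei with Slc6a4 and 0 CPM (0 to 23.8) in nuclei without it, and was seen in 14 of 26 and 0 of 12. Htr2c ran the other way, at 217 CPM (163 to 283) and 547 CPM (437 to 677), and was seen in 10 of 26 and 12 of 12.

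Ddc was at 716 CPM with Slc6a4 and 180 CPM without it, and Slc18a2 at 467 and 96.6 CPM. Tph2, also of the rule, was at 1722 and 528 CPM. Kcnn3 was at 149 and 32.2 CPM, and Calcr at 72.4 and 0 CPM (0 to 23.8). Col11a1, a fibrillar collagen, was at 12.1 CPM with Slc6a4 and 341 CPM without it, and was seen in 2 of 26 and 9 of 12 nuclei. Gata3 was at 121 CPM (81.4 to 172) with Slc6a4 and 32.2 CPM (10.5 to 75.1) without it, and Scg2 at 338 and 161 CPM. With and without Slc6a4, Maob was at 137 and 109 CPM, Maoa at 88.5 and 45.1 CPM and Gch1 at 105 and 32.2 CPM. Lmx1b was at 92.5 and 77.3 CPM, Htr1b at 64.4 and 58 CPM, and Trh at 133 and 45.1 CPM. Tac1 was at 52.3 and 12.9 CPM, Gad2 at 36.2 and 103 CPM, and Slc17a8 at 16.1 and 45.1 CPM. Nuclei without Slc6a4 met the rule through Tph2 alone, and whether intervals overlap or not is no test between the kinds. Both of the deepest serotonergic nuclei were without Slc6a4, and their 35422 and 36921 UMIs are part of the 155281 UMIs of the 12 nuclei.

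**Figure D4:**
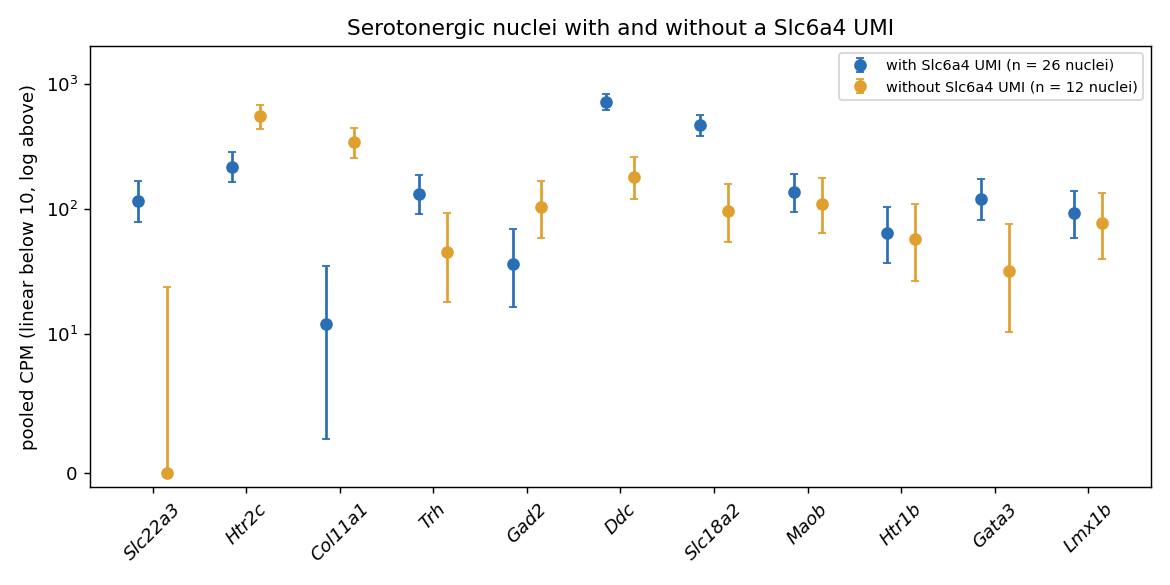
Points give the pooled level in CPM (linear below 10, log above) in the 26 serotonergic nuclei with and the 12 without a Slc6a4 UMI, with exact Poisson 95% intervals that cover counting error only. The points of Slc22a3, Ddc, Slc18a2, Gata3, Trh, Maob, Lmx1b and Htr1b lie higher for nuclei with Slc6a4. Those of Htr2c, Col11a1 and Gad2 lie higher for nuclei without it.

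Within the noradrenergic class, Maoa was seen in 38 and Slc18a2 in 37 of 38 nuclei. All 18 noradrenergic nuclei with an Lmx1b UMI also had a Calcr UMI, which was seen in 33 of all 38. Calca was seen in 21 nuclei and Tacr3 in 14. Calca and Calcr occurred together in 18 nuclei, and Calca and Tacr3 in 9. Whether these pairs met more often than their separate counts would give was not tested.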

How the data were processed

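Nuclei of 3 libraries were analysed from the UMI counts per gene and barcode that the authors deposited. The counts were made with Cell Ranger, named as version 6.1.1 per the file headers and 7.0.1 with build mm10 per the submitters' processing notes. Neither notes nor headers say whether introns and strand entered the counting, or how barcodes were selected. The classes, gene lists and tests were chosen with earlier results of these data known.

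The limits were 1000 genes and 5% mitochondrial UMIs per barcode. Doublets were called with Scrublet (Scanpy 1.11.5, expected rate 6%) and kept in the main result. UMIs were summed per library and class into 9 sums and tested in edgeR 4.0.16 (quasi-likelihood, TMM, filterByExpr, library as a block, 4 residual degrees of freedom), which was also tested on simulated data. The classes of a library come from the same tissue and droplets, which pairs them. The standard error is the log2 fold change over the square root of F. Levels are UMIs per 1000000 UMIs of the class (CPM), pooled over libraries or per library. For a gene at 0 UMIs in a class, the fold is a lower bound that sets 3 counts in the place of 0, and the fitted value is no bound. The level of the other class enters as measured, so its counting error is not part of that bound. Intervals are exact (Poisson or Clopper-Pearson, 95%) and cover counting error only. Coordinates are of GENCODE on GRCm38, the same assembly as mm10.

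Alternatives were DESeq2 1.42.0 (Wald test, and its size factors in edgeR), no filter, no library block, a stricter rule (5 UMIs and 400 CPM), doublets removed, other nuclei with under 500 CPM of Tox, Nfib and Bcl11b (those with low corticospinal markers), each library left out, and 2 sets of serotonergic nuclei left out.

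The text names the class markers, members of the lists, and for each comparison and direction the 10 called genes of largest log2 fold change with at least 50 CPM, 10 UMIs and 5 nuclei in the higher class. These 10 also had to run in the same direction in all 3 libraries, so that agreement was a condition of naming. Bare clone or model names were left out. Some genes that met these rules are not reported here.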

Additional observations from a re-analysis of the deposited data

Results flagged for a closer look

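For 5 named genes outside or within the lists, the classes were called in opposite directions against other nuclei and also differed in the test between them. The log2 fold change between the classes follows from those against other nuclei in the same fit, so it is no separate support. The difference between noradrenergic and serotonergic nuclei was -5.36 for Col11a1, -12.85 for Htr1b, -5.82 for March1, 13.13 for Nr4a3 and -13.36 for Slc44a5, all on the log2 scale of the edgeR fit. The values of Htr1b, Nr4a3 and Slc44a5 come from a class at 0 UMIs and are no bounds, and the bounds are at least 12.3-fold lower, 9.7-fold higher and 18.2-fold lower in noradrenergic nuclei. Against other nuclei the room for a lower level was small. Other nuclei held 6.49 CPM of Htr1b and 22.5 CPM of Slc44a5, where 3 UMIs stand for 5.03 CPM in noradrenergic nuclei. They held 13.4 CPM of Nr4a3, where 3 UMIs stand for 7.43 CPM in serotonergic nuclei. March1 averaged 8.62 ± 7.81 CPM in noradrenergic, 620 ± 398 CPM in serotonergic and 144 ± 42.4 CPM in other nuclei (SD, n = 3 libraries). Col11a1 averaged 2.53 ± 4.39, 124 ± 43.2 and 14.4 ± 1.37 CPM in the same order. In replicate 1 March1 was not higher, at 191 CPM in serotonergic and 192 CPM in other nuclei. In replicates 2 and 3 it stood at 692 and 976 CPM in serotonergic and 110 and 131 CPM in other nuclei. The 2 deepest serotonergic nuclei lay in replicates 2 and 3. In the 12 serotonergic nuclei without a Slc6a4 UMI, Col11a1 had 53 UMIs (341 CPM). The 26 with one had 3 UMIs (12.1 CPM), and other nuclei stood at 14.8 CPM pooled. March1 stood at 1146 CPM without Slc6a4 and 483 CPM with it, again with no test. Without the 2 deepest serotonergic nuclei Col11a1 did not pass the filter. Of all tested genes 28 were called in opposite directions in this way and also between the classes. Without replicate 3 the call of Nr4a3 between the classes was lost (adjusted p = 0.063). The call of Htr1b as lower in noradrenergic than in other nuclei was lost in 7 of 10 alternatives. Among them were the stricter rule and other nuclei with low corticospinal markers (adjusted p = 0.084 and 0.086 in edgeR).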

How the results depend on the processing

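Counts of called genes are given as higher and lower in noradrenergic over other, serotonergic over other, and noradrenergic over serotonergic nuclei. Leaving out 1 library gave 314 to 579, 404 to 681, 128 to 377, 265 to 513, 97 to 199 and 86 to 189 genes, and the lowest count of each came without replicate 3. With no library block, the classes of a library unpaired, the counts were 500, 636, 326, 498, 191 and 193. With no filter on low counts the lower calls were 1211 in noradrenergic and 896 in serotonergic nuclei. Against the 4133 other nuclei with under 500 CPM of Tox, Nfib and Bcl11b, the counts were 284 and 378 in noradrenergic and 125 and 170 in serotonergic nuclei. There Trpc4 in noradrenergic nuclei stood at 0.62 (adjusted p = 0.35), turned in direction and without a call, and the cause was not tested. The counts under DESeq2 (Wald test or size factors), stricter membership, doublets removed, and 2 alternatives chosen after seeing the data (without the 2 deepest serotonergic nuclei, or without the 4 lacking Ddc) stayed within 1.5 times. Over the alternatives run, the mean share ranged from 0.328% to 0.514% in noradrenergic nuclei, beside 0.405% in the main result. In serotonergic nuclei it ranged from 0.315%, under the stricter rule, to 0.485%, beside 0.407%. All lay within 1 SD of the main result, but with 3 libraries leaving 1 out cannot move the mean by 1 SD. Depth limits the sparse genes, since 3 UMIs stand for 5.03 CPM in noradrenergic and 7.43 CPM in serotonergic nuclei.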

Other observations

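Barcodes outside the limits on genes and mitochondrial UMIs could not show whether monoaminergic nuclei were lost. Of 8490 such barcodes, 8325 of them in replicate 2, 0 met either rule. That allows a share of up to 0.0353% for meeting a rule, not for monoaminergic nuclei. Of 74287112 UMIs in all barcodes of replicate 2, 68026919 were in other passing nuclei, so most failing barcodes there were shallow. The smallest there held 500 UMIs, and the shallowest member of any library held 1730. A nucleus so shallow, at the marker level of a member, would often fall short of the UMI limit. Exactly 2 UMIs of the noradrenergic pair were seen in 15 passing barcodes and exactly 2 of the serotonergic pair in 24, and these were counted among other nuclei.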
